A study of Caenorhabditis elegans with 24 samples.

Results

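Relative transcript levels changed between 330 and 410 min after the 4-cell stage in embryos of the nematode Caenorhabditis elegans. Many genes of the elongation machinery, apical matrix, muscle, intestine, cilia and synapses were higher at 410 min. Many genes of mitosis and DNA replication and many neuronal precursor regulators were lower. The comparison set the 3 libraries of stage 7 (410 min) against the 3 of stage 6 (330 min), chosen by their stage labels, 6 of the 24 libraries of the series. Of 8279 genes with enough counts for a test, 1527 (18.4%) were higher at 410 min and 947 (11.4%) were lower by edgeR's quasi-likelihood test with Benjamini-Hochberg adjustment at 0.05, and 5805 were not called. These counts depended on how the libraries were scaled: with scaling to spike-in RNA standards, 568 were called higher and 363 lower.

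The series followed messenger RNA over 8 stages of embryonic development by CEL-Seq, which counts the 3′ ends of polyadenylated transcripts. Both stages came from the wild-type strain N2, with no treatment or added allele, and each library pooled RNA from 50 whole embryos that had been freed from cut adults and picked with a mouth pipette. The 3 samples of a stage are replicates by label only, so the p-values measure the spread between samples, which may be technical. Levels are given as CPM, counts relative to the library size after scaling. Changes were tested within each gene, between libraries. Where genes are ranked by CPM, the order is one of counted ends, and how evenly the ends of different genes were counted was not tested.

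In this interval the embryo turns from a ball of cells into a worm. The epidermis closes around it and then squeezes it longer: actomyosin contracts in the epidermal cells, actin rings and hemidesmosomes carry the force, and an apical matrix, later replaced by cuticle, holds the shape. Cell division in the embryo is then largely over, and muscle, gut, excretory system and neurons make their terminal proteins.

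The 330 min libraries held 569969, 380018 and 977908 worm counts and the 410 min libraries 383443, 462841 and 214206, and 9390 to 11931 genes were detected per library. The spike-in RNA standards, which made up 2.36 to 5.97% of the counts, were left out. One count stood for 1.02 to 4.67 CPM, so values near those levels rest on single counts. The largest count in the table was 1023, and 18 to 384 genes per library exceeded 500 counts, the most in 330 min replicate 3. Large counts are compressed if that value is a limit of the counting, and such genes are named below as over 500 counts. Rank correlations (Spearman) over genes were 0.769 to 0.828 between libraries of different stages. They were 0.939 to 0.962 within 330 min and 0.922 to 0.93 within 410 min.

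Markers of the tissues of a whole embryo were present at both stages. The lowest and highest values over the 6 libraries were 189 and 934 CPM for the muscle myosin myo-3, 11.05 and 75.8 CPM for the intestinal GATA factor elt-2, 464 and 1076 CPM for the pharynx regulator pha-4, 529 and 810 CPM for the epidermal regulator lin-26 (which overlaps another gene), 98.8 and 144 CPM for the neuronal gene unc-119, and 3.09 and 44.6 CPM for the germline gene pgl-1. Of genes active in the cut adults, the 6 yolk protein genes summed to 0, 1127 and 331 CPM at 330 min and 6.18, 258 and 215 CPM at 410 min, and edgeR called 0 of 6, as did DESeq2, with 0 at an unadjusted p under 0.05. The 30 major sperm protein genes summed to at most 10.8 CPM in any of the 6 libraries, and the adult germline gene gld-1 had 1 count in 330 min replicate 3 and 0 in the others. Among the eggshell and meiosis genes, cbd-1 stood between 33.97 and 183 CPM, perm-2 between 0 and 35.2 CPM, perm-4 between 0 and 54.2 CPM, rec-8 between 0 and 10.8 CPM and htp-3 between 0 and 8.51 CPM. The part of adult RNA in the results was not tested.

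The summed level of 44 maternal and germline genes set one library apart. It was 1205, 1352 and 1292 CPM at 330 min and 991, 2642 and 729 CPM at 410 min, so 410 min replicate 2 stood above all other libraries. It also had the highest sum of its stage for DNA replication genes (1755 CPM, against 1096 and 912 CPM) and for mitosis genes (3723 CPM, against 2893 and 2790 CPM). Within 330 min, replicate 3, the deepest library, had the lowest sum of sarcomere genes (7256 CPM, against 10035 and 13164 CPM) and the highest of mitosis genes (8069 CPM, against 6900 and 6628 CPM). The part of these libraries in the results was not tested beyond leaving each out. Of the 36 tested, 1 was called higher, the maternal RNA-binding protein gene puf-5, with 1.70, 8.13 and 5.21 CPM at 330 min and 0, 68.04 and 11.05 CPM at 410 min. The call of puf-5 rested on 410 min replicate 2, and without it the log2 change was -0.24 (edgeR adjusted p = 0.905). The 2 called lower were gcna-1, which overlaps another gene, and mes-4, a histone methyltransferase, at 49.5 and 16.1 CPM. Without 410 min replicate 2, 5 were called lower, and without 410 min replicate 1, 8 were called higher.

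Among the calls, 1276 genes were at least 2-fold higher and 653 at least 2-fold lower, 783 and 220 at least 4-fold, and 478 and 85 at least 8-fold. On the log2 scale the median change was 2.04 among higher calls and -1.27 among lower calls, against -0.03 over all tested genes. The 3 libraries of each stage did not overlap for 1396 of the genes called higher and 875 of those called lower. Over all 8279 tested genes, called or not, 1776 had no overlap in the higher direction and 1523 in the lower. The median level of higher calls went from 19.5 to 89.2 CPM, and that of lower calls from 77.9 to 31.3 CPM. Of the former, 84 had 0 counts at 330 min, and of the latter, 25 had 0 counts at 410 min.

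Among the higher calls the highest stage mean was at 500 min for 1067, at 410 min for 387 and at 60 min for 52. The lower calls had their highest stage mean spread over the earlier course, at 60 min for 208, at 120 min for 215, at 180 min for 190, at 225 min for 118, at 270 min for 109 and at 330 min for 86. It was at 500 min for 21 of them. The selection itself sets part of this split, since it leaves 0 higher calls with their highest mean at 330 min and 0 lower calls at 410 min. In a whole embryo, fewer cells of a type and less RNA per cell cannot be told apart. The split of the calls depended on the scaling: 61.7% of calls were higher with TMM factors, 72.2% with DESeq2 size factors, 74.3% with DESeq2 and 40.04% with library size alone, under which the median of all genes stood at -0.32. Scaling to the spike-ins moved that median to -0.46 and left 568 higher and 363 lower. No gene was called in opposite directions under any of these settings.

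**Figure D1:**
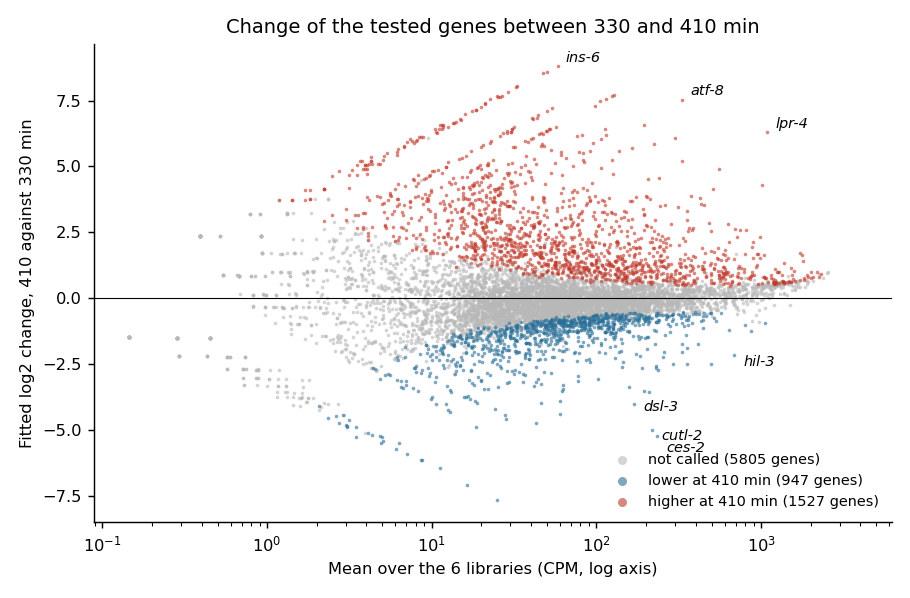
Each point is one tested gene, with its mean CPM over the 6 libraries on the horizontal log axis and its fitted log2 change on the vertical axis; red points (1527) were called higher at 410 min, blue points (947) lower, and grey points (5805) were not called. The slanted rows at the left and top are genes with 0 or few counts at one stage, whose fitted change depends on the counts added by the fit; ins-6 is the highest of the named genes and ces-2 and cutl-2 the lowest of those labelled.

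The calls were not spread evenly over the chromosomes. Genes called higher made up 29.2% of 1118 tested genes on chromosome X and 22.9% of 1307 on V, against 17.4% of 1278 on IV, 16.3% of 1505 on II, 14.1% of 1542 on I and 13.8% of 1461 on III. Lower calls made up 8.95% on V, 11.2% on X and 10.7 to 13.5% on the others. Of the 12 mitochondrial protein genes edgeR called 0, with 3 higher at an unadjusted p under 0.05 and 1 called by DESeq2. These shares are a description without a test.

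Among genes of at least 50 CPM at 410 min, the steepest rises were from 0 or near 0. The insulin-like gene ins-6, on chromosome II from base 6000436 to 6001009, had 0 CPM in each library at 330 min and 67.9, 162 and 122 CPM at 410 min. No 330 min library had a count of it, and with 3 counts over the stage as the limit that a count of 0 allows, ins-6 was at least 82.3-fold higher. By the same limit the acyltransferase family gene mboa-1, with mean 0 CPM at 330 min and 100.3 CPM at 410 min, was at least 70.5-fold higher, the saposin-like spp-7 at least 36.4-fold and F58E6.13 at least 45.4-fold. C35A5.11 went from 2 counts at 330 min to 256 ± 11.4 CPM, a ratio of 273 (95% counting interval 74.7 to 2265). The same near-absence at 330 min held for the lipocalin-related lpr-1 (2 counts, then 246 ± 79.2 CPM; ratio 252 (95% counting interval 69.1 to 2097)), the saposin-like spp-13 (ratio 247 (95% counting interval 67.5 to 2050.4)) and the potassium channel gene twk-11 (ratio 198 (95% counting interval 54.02 to 1648)). The other genes among the 15 highest changes, dyf-4, valv-1, F31E3.12, T16G1.2, far-3, F58H1.2 and atf-8, overlap another gene in the annotation and are uncertain, since the strand of counting is not given in the sources used here. Of these atf-8, a bZIP transcription factor gene, was the most abundant, with 5.11, 2.71 and 2.61 CPM at 330 min and 676, 737 and 558 CPM at 410 min.

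Among genes of at least 50 CPM at 330 min, the steepest falls included those of regulators and matrix genes. The cuticlin-like gene cutl-2, on chromosome II from base 9721758 to 9724673, had 408, 444 and 413 CPM at 330 min and 18.5, 7.04 and 16.6 CPM at 410 min (log2 change -4.99, SE 0.34, edgeR adjusted p = 6.51e-14). The 330 min libraries were close together and all far above those of 410 min. The gene dsl-3, on chromosome IV from base 1610273 to 1612924, which encodes a protein of the family of Notch ligands, had 296, 293 and 366 CPM at 330 min and 12.4, 21.1 and 27.6 CPM at 410 min (log2 change -4.02, SE 0.29, edgeR adjusted p = 3.36e-13). The bZIP factor ces-2, known for its part in the death of a pair of neuron sisters, had 453, 460.5 and 451 CPM at 330 min and 9.26, 14.1 and 11.05 CPM at 410 min (log2 change -5.24, SE 0.33, edgeR adjusted p = 4.56e-14). It was over 500 counts at 330 min and fell in every library. The Ftz-F1 type nuclear receptor nhr-25, needed in the epidermis, had 158, 78.6 and 114 CPM at 330 min and 12.4, 14.1 and 0 CPM at 410 min (log2 change -3.45, SE 0.51, edgeR adjusted p = 2.95e-06). The insulin-like ins-2 had 27.2, 21.7 and 195 CPM at 330 min and 0, 2.35 and 11.05 CPM at 410 min, so that its mean at 330 min came mostly from replicate 3. Of the 15 lowest changes among genes that had at least 50 CPM at 330 min and stayed at or under 500 counts, the transcription factor genes sptf-1 (mean 54.4 CPM at 330 min and 1.81 CPM at 410 min), ngn-1 and die-1 (mean 113 CPM at 330 min and 10.2 CPM at 410 min), the F-box genes fbxc-24 and fbxc-40, the glucuronosyltransferase gene ugt-53 (mean 53.1 CPM at 330 min and 2.87 CPM at 410 min), the phosphoinositide 3-kinase gene piki-1 (mean 82.9 CPM at 330 min and 9.12 CPM at 410 min) and the proteoglycan gene cpg-20 (mean 289 CPM at 330 min and 25.5 CPM at 410 min) also fell, as did arrd-1, ZK1053.4 and T14F9.2.

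By size in CPM, the largest gain was that of lpr-4, a lipocalin-related gene of the apical matrix, with 30.6, 48.8 and 13.03 CPM at 330 min and 2220.3, 1795 and 2398 CPM at 410 min (log2 change 6.31, SE 0.44, edgeR adjusted p = 1.72e-10). Its 410 min libraries were all far above those of 330 min. It exceeded 500 counts, as did C48E7.1 (mean 857 CPM at 330 min and 2686 CPM at 410 min), the neurabin gene nab-1 (mean 813 CPM at 330 min and 2637 CPM at 410 min), the bZIP factor atf-2 (mean 781 CPM at 330 min and 1967 CPM at 410 min), the calponin-family cpn-3 (mean 990.3 CPM at 330 min and 2594 CPM at 410 min) and the 14-3-3 gene ftt-2 (mean 1462 CPM at 330 min and 2915 CPM at 410 min). The calls of cpn-3 (edgeR adjusted p = 0.0637 to 0.161 without one of 4 libraries) and ftt-2 (0.0543 without 410 min replicate 3) rest on single libraries. The largest losses were those of the linker histone genes hil-3 and hil-2, both over 500 counts. For hil-3 the libraries gave 1052, 1484 and 807 CPM at 330 min and 219, 234.6 and 309 CPM at 410 min. For hil-2 the libraries gave 1119.9, 1709 and 844 CPM at 330 min and 485, 474 and 586 CPM at 410 min. The histone mRNA-binding protein gene cdl-1 was among the genes of lowest p, with 419, 419.8 and 417 CPM at 330 min and 80.3, 129.04 and 88.4 CPM at 410 min (log2 change -2.04, SE 0.22, edgeR adjusted p = 5.34e-09). The chromatin-related genes hil-3, hil-2 and cdl-1 were all lower in each 410 min library than in any 330 min library. Other linker histone genes did not share this fall: hil-7, over 500 counts, was called higher (log2 change 0.88, edgeR adjusted p = 0.044), and hil-5 was not called (-0.55, edgeR adjusted p = 0.528). The stomatin gene sto-1, over 500 counts, fell from 633 ± 107 CPM to 190.4 ± 15.1 CPM.

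**Figure D2:**
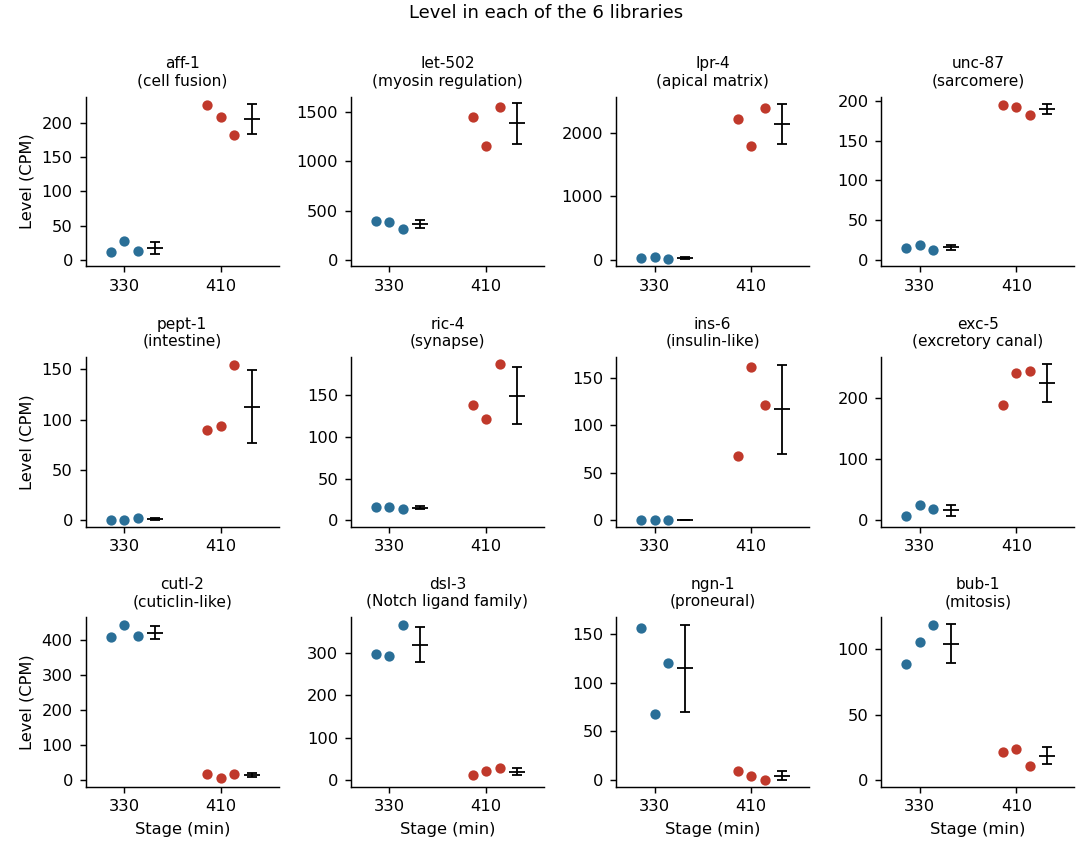
Level in CPM (vertical axes) of 12 genes in each of the 3 libraries of 330 min (blue) and 410 min (red), with the mean and SD of the 3 as a black bar beside them. For all 12 genes the 2 groups of points do not overlap; the first 8 are higher and the last 4 lower at 410 min.

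Among lists of 9 or more tested genes described next, 16 had 0 members called lower by edgeR, with 0 to 2 at an unadjusted p under 0.05 and 0 called by DESeq2. Of the same lists 7, 2 of them also among the 16, had 0 called higher, with 0 to 3 at an unadjusted p under 0.05 and 0 to 2 called by DESeq2.

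The elongation machinery rose in part. Of 22 tested actomyosin and spectrin genes 10 were called higher and 1 lower. The median of their log2 changes was 0.41, against -0.03 for all tested genes. The largest change among those called was that of let-502, a kinase gene that promotes contraction through non-muscle myosin, with 395, 385 and 314 CPM at 330 min and 1454, 1154 and 1552 CPM at 410 min (log2 change 1.93, SE 0.20, edgeR adjusted p = 9.85e-10). Each 410 min library stood above each 330 min library by a wide margin. Its opponent, the myosin phosphatase subunit mel-11, was also called, from 380.4 ± 61.9 CPM to 619 ± 67.1 CPM, and overlaps another gene.

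The contractile proteins rose as well, apart from one heavy chain. The non-muscle myosin heavy chain nmy-1 had 744, 658 and 517 CPM at 330 min and 1331, 849 and 1342 CPM at 410 min (log2 change 0.87, SE 0.25, edgeR adjusted p = 0.00689), and the light chain genes mlc-4 and mlc-5 had log2 changes of 1.00 and 0.87; all 3 were over 500 counts, and mlc-4 overlaps another gene. The second heavy chain gene, nmy-2, was not called (mean 146 CPM at 330 min and 118 CPM at 410 min). The tropomyosin gene lev-11 and the formin gene fhod-1 rose from 232 ± 40.2 CPM to 856 ± 149.7 CPM and from 112.3 ± 24.5 CPM to 398 ± 99.8 CPM. The GTPase gene cdc-42, the kinase gene pak-1 and the spectrin genes spc-1 and sma-1 were among the 11 not called. The member called lower was gex-2, of the actin-nucleating WAVE complex, at 128 and 77.9 CPM, which overlaps another gene. The count of 10 was 1 with spike-in scaling and 4 with genes over 500 counts left out.

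Junction genes did not share this rise. Of 19 apical junction and polarity genes 2 were called higher and 2 lower (median change -0.06 on the log2 scale). The cadherin hmr-1 had 965, 934 and 658 CPM at 330 min and 945, 762 and 1028 CPM at 410 min. The MAGUK gene dlg-1 had 885, 449.6 and 601 CPM at 330 min and 648, 544 and 536 CPM at 410 min. Both were over 500 counts, neither was called, and the libraries of the stages overlapped. The claudin-like vab-9 rose from 103 ± 20.97 CPM to 243 ± 32.9 CPM, and picc-1 from 70.2 ± 17.97 CPM to 249 ± 44.6 CPM, though the latter overlaps another gene. The genes called lower were the crumbs-like eat-20 (mean 56.1 CPM at 330 min and 31.6 CPM at 410 min) and the p120 catenin jac-1 (mean 184 CPM at 330 min and 113 CPM at 410 min), which overlaps another gene. Both calls were lost without 330 min replicate 1 and without 410 min replicate 2. Of 12 genes of the epidermal hemidesmosomes, which anchor the epidermis to muscle and cuticle, 7 were called higher and 0 lower, with a median of 1.14. Among them were the actin-binding eps-8 (439, 385 and 262 CPM at 330 min and 1210.5, 814 and 989 CPM at 410 min), the intermediate filament gene ifa-3 (mean 196 CPM at 330 min and 448 CPM at 410 min), pat-12 (mean 163 CPM at 330 min and 362 CPM at 410 min) and the spectraplakin vab-10 (mean 762 CPM at 330 min and 1333 CPM at 410 min), the last over 500 counts and overlapping another gene.

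Genes of the apical matrix that precedes the cuticle were more often higher than lower. Of 22 tested genes 11 were called higher and 3 lower, with a median of 0.80. The lipocalin-related genes lpr-1, lpr-4, lpr-5, lpr-6 and lpr-3 were called higher, the last over 500 counts and overlapping another gene, and lpr-7 was not called. For lpr-5 the libraries gave 57.9, 75.8 and 38.2 CPM at 330 min and 1068, 839.9 and 961 CPM at 410 min (log2 change 4.14, SE 0.28, edgeR adjusted p = 6.51e-14). Both cell fusion genes rose, aff-1 with 11.9, 27.1 and 13.03 CPM at 330 min and 225.4, 209 and 182 CPM at 410 min and eff-1, which overlaps another gene, from 19.3 ± 2.33 CPM to 172 ± 61.5 CPM. The leucine-rich repeat gene egg-6 rose from 39.0 ± 6.21 CPM to 350.1 ± 39.2 CPM, while let-4 of the same protein class fell from 273 ± 25.7 CPM to 187 ± 25.07 CPM. The fibrillin-like fbn-1 fell, with 962, 897 and 697 CPM at 330 min and 195, 152 and 93.9 CPM at 410 min; it was over 500 counts and overlaps another gene. The third gene called lower was mlt-10, and the lower count was 1 without 330 min replicate 2, without 330 min replicate 3, without 410 min replicate 1 or without 410 min replicate 2. The matrix genes let-653, noah-1, noah-2, sym-1, dex-1 and dyf-7 were not called.

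Several collagens of the cuticle furrows rose, whereas most cuticle collagens were too low for a test. Of 9 tested collagens with phenotype-based names 7 were called higher and 0 lower (median 1.04), although without 330 min replicate 3 the count was 4. The furrow collagens dpy-2, dpy-3, dpy-7 and dpy-10 were among the 7, dpy-8 and dpy-9 were not tested, with 0 and at most 5 counts per library, and dpy-10 overlaps another gene. The gene dpy-2 had 366, 639 and 351 CPM at 330 min and 877, 971 and 1155 CPM at 410 min (log2 change 1.16, SE 0.26, edgeR adjusted p = 0.000781). Its relative dpy-7, over 500 counts, had 817, 1154 and 596 CPM at 330 min and 1649, 1527 and 1851 CPM at 410 min (log2 change 0.98, SE 0.25, edgeR adjusted p = 0.0025). In both, all libraries of 410 min were above all of 330 min. The remaining 3 were dpy-17, over 500 counts and with overlapping groups, and lon-3 and mec-5, with 1 and 0 counts at 330 min and 16.9 ± 1.69 CPM and 9.43 ± 8.52 CPM at 410 min. Of 158 numbered col genes only 35 had counts enough for a test, and 4 of them were called higher, col-121, col-76, col-34 and col-68, against 0 lower. Their median log2 change was -0.84, or -0.61 with genes at 0 counts set to their bound. The collagens col-76 and col-121, of which the latter overlaps another gene, stood at 221 ± 42.7 CPM and 383 ± 110.2 CPM and reached 423 ± 61.8 CPM and 828 ± 75.4 CPM.

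Enzymes of cuticle formation were called at shares near those of all genes, 21.4% higher and 14.3% lower. Of 14 tested 3 were called higher, the chitin synthase chs-2 (mean 3.43 CPM at 330 min and 49.4 CPM at 410 min), the procollagen protease dpy-31 (mean 15.2 CPM at 330 min and 138 CPM at 410 min) and the oxidase bli-3 (mean 11.5 CPM at 330 min and 41.3 CPM at 410 min), the last 2 overlapping another gene. The 2 called lower modify procollagen: the lysyl hydroxylase let-268 had 318, 198 and 263 CPM at 330 min and 136, 70.4 and 88.4 CPM at 410 min (log2 change -1.42, SE 0.27, edgeR adjusted p = 6.68e-05), and the prolyl hydroxylase subunit dpy-18 stood at 334 and 193 CPM. Cuticlins and cuticlin-like genes were split, with 10 called higher and 4 lower of 21 (median 1.39). The 4 lower were cutl-2, cutl-25, cutl-20 and cutl-29, the last 2 overlapping another gene. The summed level of all 35 in the table was 1631, 1360 and 1481 CPM at 330 min and 1618, 1499 and 1624 CPM at 410 min, so that the stages overlapped. Among the 10 higher, cutl-24 reached 219 ± 33.7 CPM and cutl-13, which overlaps another gene, 107 ± 26.97 CPM.

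Families that act at the epidermal surface rose together in part. Of 19 patched-related genes, which encode membrane proteins with a sterol-sensing domain, 13 were called higher and 0 lower, with a median of 1.48. The largest level was that of ptr-4, with 148, 200.4 and 98.2 CPM at 330 min and 942, 744 and 856 CPM at 410 min (log2 change 2.55, SE 0.36, edgeR adjusted p = 1.82e-05). The gene daf-6, which shapes the channel of a sense organ, had 27.2, 18.96 and 21.7 CPM at 330 min and 204, 124 and 71.8 CPM at 410 min, and the patched homologues ptc-1 and ptc-3 rose as well. Of 16 hedgehog-related genes 5 were called higher and 0 lower, a count of 3 without 330 min replicate 3, among them qua-1 (93.6, 86.7 and 64.3 CPM at 330 min and 401, 314 and 419.9 CPM at 410 min) and wrt-2 (mean 4.14 CPM at 330 min and 161 CPM at 410 min; overlapping another gene). Of 10 claudin-like genes 6 were called higher and 0 lower; clc-6, over 500 counts, had 407, 588 and 372 CPM at 330 min and 1312, 1335 and 1702 CPM at 410 min, and clc-8, which overlaps another gene, 107, 149 and 102 CPM at 330 min and 828, 823 and 867 CPM at 410 min. The plot of list shares sets these counts beside the shares of all tested genes.

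Regulators of the epidermis were called in both directions, 33.3% higher and 16.7% lower, against 18.4% and 11.4% of all tested genes. With 12 tested these shares rest on few calls, and DESeq2 called 2 higher and 1 lower. Of 12 tested 4 were called higher, the GATA factor elt-6 (mean 142 CPM at 330 min and 252 CPM at 410 min), the Grainyhead gene grh-1 (mean 0.579 CPM at 330 min and 24.9 CPM at 410 min) and the nuclear receptors nhr-73 and nhr-74, the last overlapping another gene. Their count was 2 without 330 min replicate 1, without 330 min replicate 3 or without 410 min replicate 3. The 2 called lower were nhr-25, above, and the engrailed homologue ceh-16, which went from 17 counts to 0 and overlaps another gene. The epidermal determinants lin-26, elt-1 and elt-3 were not called. For elt-3 the libraries gave 221, 165 and 178 CPM at 330 min and 161, 145 and 171 CPM at 410 min.

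**Figure D3:**
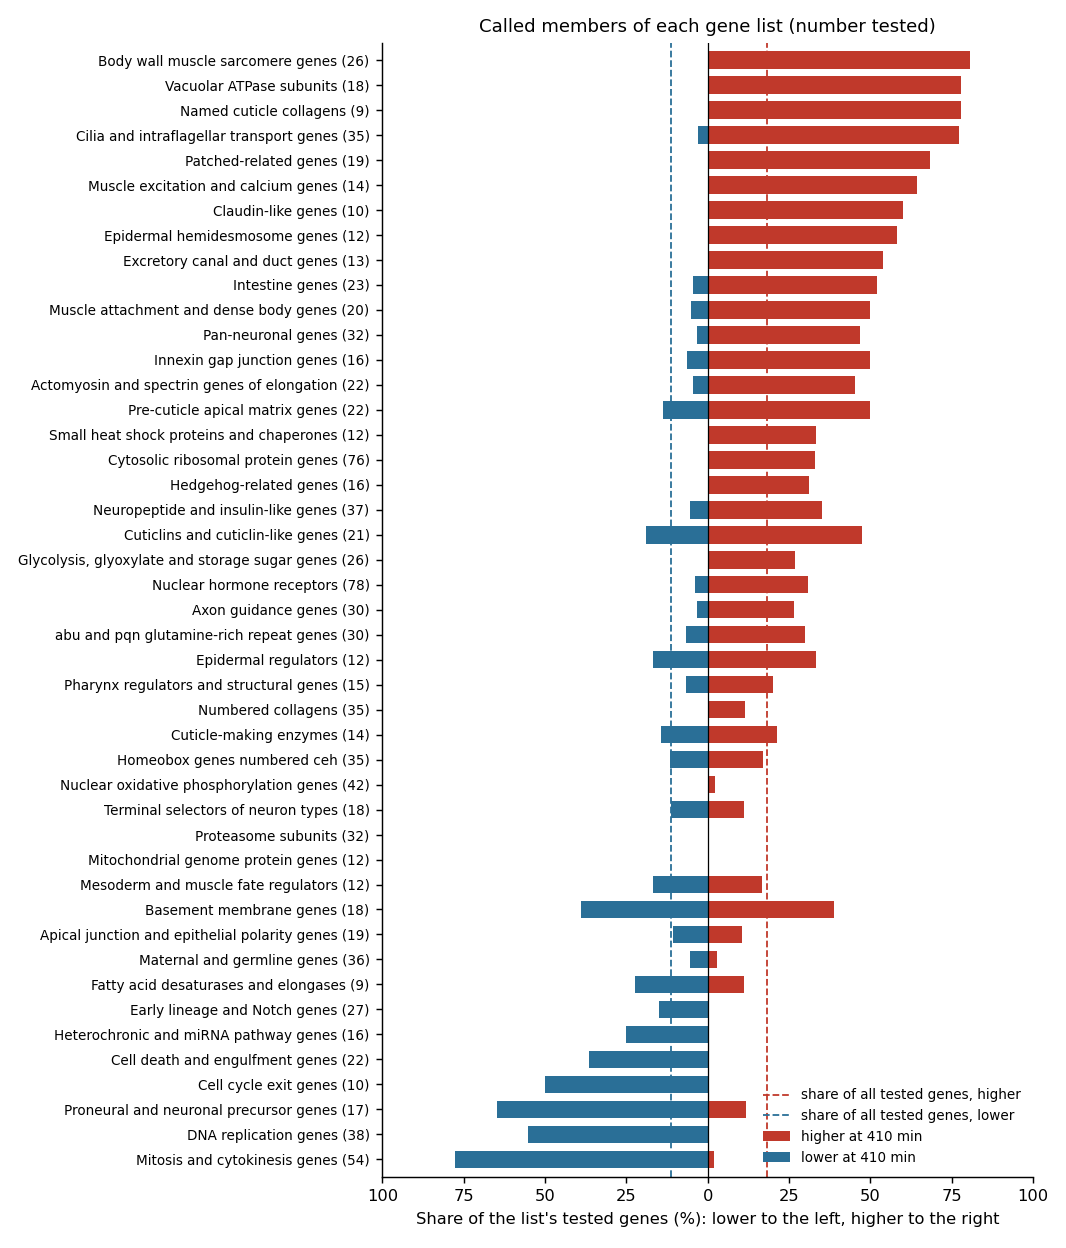
Share of each list's tested genes called higher (red bars, to the right) or lower (blue bars, to the left) at 410 min, in percent, for lists with at least 9 tested genes, with the number tested in brackets. Dashed lines mark the shares of all tested genes, 18.4% higher and 11.4% lower; sarcomere, vacuolar ATPase, collagen and cilia genes lie farthest to the right, and mitosis and neuronal precursor genes farthest to the left.

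Most genes of the body wall muscle filaments were called higher, a count that depended on 330 min replicate 3. Of 26 tested sarcomere genes 21 were called higher and 0 lower (median change 1.29 on the log2 scale). The summed level of all 27 in the table was 10035, 13164 and 7256 CPM at 330 min and 23416, 19921 and 24976 CPM at 410 min. The calponin-like unc-87, which overlaps another gene, had 15.3, 18.96 and 13.03 CPM at 330 min and 195, 192 and 182 CPM at 410 min (log2 change 3.64, SE 0.49, edgeR adjusted p = 2.1e-06). The paramyosin gene unc-15 had 364, 463 and 304 CPM at 330 min and 1214, 1161 and 1254 CPM at 410 min (log2 change 1.69, SE 0.49, edgeR adjusted p = 0.0136), and the myosin heavy chain genes myo-3 and unc-54 rose from 284 ± 131 CPM to 802 ± 135 CPM and from 281 ± 50.5 CPM to 715 ± 129.2 CPM. The groups did not overlap for any of these genes. The titin gene ttn-1 had 192, 62.3 and 61.7 CPM at 330 min and 1214, 314 and 486 CPM at 410 min, a spread wider than for the others. The call of unc-54 was lost without any single one of the 6 libraries (edgeR adjusted p = 0.0513 to 0.144), and those of ttn-1 and myo-3 without 330 min replicate 3 among others. Near-identical actin genes share sequence, so act-2, act-3 and act-4, also called, are uncertain, as is act-1, which was not. The count of 21 rested in part on 330 min replicate 3, without which 9 were called, and 9 of the 26 were over 500 counts. It was 14 without 330 min replicate 1 or without 410 min replicate 1, 14 with DESeq2, 6 with genes over 500 counts left out and 3 with spike-in scaling.

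The structures that attach the filaments followed. Of 20 tested attachment and dense body genes 10 were called higher and 1 lower, with a median of 0.57. The ALP/Enigma gene alp-1 went furthest, with 3.40, 5.42 and 3.48 CPM at 330 min and 361, 406 and 387 CPM at 410 min (log2 change 6.56, SE 0.38, edgeR adjusted p = 7.61e-15), but overlaps another gene. The zyxin gene zyx-1 had 119.1, 81.3 and 62.6 CPM at 330 min and 497, 352 and 343 CPM at 410 min (log2 change 2.21, SE 0.31, edgeR adjusted p = 1.77e-06). The vinculin gene deb-1, over 500 counts, had 381, 377 and 253 CPM at 330 min and 1646, 1136 and 1580.0 CPM at 410 min (log2 change 2.12, SE 0.31, edgeR adjusted p = 5.17e-06). Each was higher in every 410 min library. The integrin and kinase core of the attachment, pat-2, pat-3, pat-4, pat-6 and unc-112, was not called, and the paxillin gene pxl-1 fell, from 27.5 ± 12.4 CPM to 3.62 ± 3.22 CPM. Of 14 genes of excitation and calcium handling 9 were called higher and 0 lower (median 1.68). They included the voltage-gated calcium channel subunits egl-19 (mean 66.1 CPM at 330 min and 307 CPM at 410 min) and unc-36 (mean 14.7 CPM at 330 min and 80.7 CPM at 410 min), the potassium channel slo-1 (mean 59.0 CPM at 330 min and 220.3 CPM at 410 min) and the receptor chaperone ric-3, with 56.2, 51.5 and 49.5 CPM at 330 min and 383, 296 and 376 CPM at 410 min; the first 3 overlap another gene. The ryanodine receptor unc-68 and the calcium pump sca-1 were not called.

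Regulators of muscle fate were called at shares near those of all genes, though their summed level was higher in every 410 min library. The sum of all 14 in the table was 1442, 1444 and 1384 CPM at 330 min and 2050, 1713 and 2088 CPM at 410 min. Of 12 tested 2 were called higher and 2 lower (16.7% each, against 18.4% and 11.4% of all tested genes), with a median of 0.21. The MyoD homologue hlh-1, which overlaps another gene, had 56.2, 40.6 and 72.1 CPM at 330 min and 30.9, 9.38 and 38.7 CPM at 410 min (log2 change -1.32, SE 0.38, edgeR adjusted p = 0.00766). The caudal homologue pal-1, which overlaps another gene too, stood at 151 ± 23.4 CPM and 70.7 ± 42.5 CPM; 1 of these calls was lost without 330 min replicate 3, without 410 min replicate 1 or without 410 min replicate 2. The genes called higher, 4 without 410 min replicate 2, were the zinc finger factor sem-4, with 100.4, 154 and 109 CPM at 330 min and 389, 364 and 370.1 CPM at 410 min, and the homeobox gene ceh-24, at 0 counts at 330 min and 20.8 ± 8.39 CPM.

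The basement membrane, the sheet between epidermis and muscle, was divided by its components. Of 18 tested genes 7 were called higher and 7 lower. Both type IV collagen genes rose: emb-9 had 371, 515 and 326 CPM at 330 min and 689, 760.1 and 873 CPM at 410 min (log2 change 0.95, SE 0.23, edgeR adjusted p = 0.00181), and let-2, over 500 counts and overlapping another gene, 945, 1262 and 672 CPM at 330 min and 2026, 1724 and 2541 CPM at 410 min. Of the laminin genes the gamma chain lam-2 fell from 26.3 ± 13.4 CPM to 4.40 ± 3.84 CPM, and the alpha chain epi-1, which overlaps another gene, had 325, 276 and 334 CPM at 330 min and 127, 131 and 149 CPM at 410 min (log2 change -1.22, SE 0.22, edgeR adjusted p = 4.61e-05). Perlecan (unc-52), papilin (mig-6), syndecan (sdn-1), the collagen XV/XVIII gene cle-1 and the protease mig-17 were also called higher, and all but sdn-1 overlap another gene. Nidogen (nid-1), peroxidasin (pxn-2), dystroglycan (dgn-1), the integrin subunit ina-1 and let-268, the hydroxylase above, were also called lower. Of these pxn-2 and ina-1 overlap another gene, and the libraries overlapped for nid-1. The lower count was 4 without 410 min replicate 1 and 4 without 410 min replicate 2.

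Intestine genes were more often higher than lower. Of 23 tested 12 were called higher and 1 lower, with a median of 1.03. The peptide transporter pept-1 had 0, 0 and 1.74 CPM at 330 min and 89.6, 93.8 and 155 CPM at 410 min, a ratio of 109.8 (95% counting interval 29.6 to 919). The intermediate filament genes ifb-2, ifp-1, ifd-1 and ifd-2 were all called higher, and the first had 100.4, 168 and 80.8 CPM at 330 min and 408, 568 and 679.5 CPM at 410 min (log2 change 2.29, SE 0.32, edgeR adjusted p = 2.44e-06). The second had 20.4, 32.5 and 18.2 CPM at 330 min and 182, 192 and 254 CPM at 410 min (log2 change 3.21, SE 0.34, edgeR adjusted p = 4.84e-09). The microvillar actin act-5 rose from 465 ± 71.3 CPM to 1036 ± 167 CPM, and the proton exchangers pbo-4 and nhx-2 rose too. In each of these genes the 2 groups of libraries stood apart. The GATA factor elt-2 was not called, with 35.7, 75.8 and 52.1 CPM at 330 min and 37.1, 49.3 and 11.05 CPM at 410 min, and elt-7 was called lower, with 27.2, 16.3 and 32.1 CPM at 330 min and 6.18, 9.38 and 22.1 CPM at 410 min (log2 change -1.28, SE 0.49, edgeR adjusted p = 0.0447). The call of elt-7 was lost without 330 min replicate 1, 330 min replicate 3, 410 min replicate 1 or 410 min replicate 2.

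Vacuolar ATPase, the proton pump of acidic organelles and of the excretory canal, had 14 of 18 tested subunits called higher and 0 lower, with a median of 0.90. The summed level of all 20 subunits was 5600, 5905 and 4870 CPM at 330 min and 10018, 9513 and 10148 CPM at 410 min. The gene vha-8 had 458, 303 and 317 CPM at 330 min and 874, 741 and 839.7 CPM at 410 min (log2 change 1.18, SE 0.20, edgeR adjusted p = 1.93e-05). For vha-11 the values were 138, 100.2 and 137 CPM at 330 min and 334, 249 and 376 CPM at 410 min (log2 change 1.31, SE 0.23, edgeR adjusted p = 2.38e-05). The third, vha-10, had 284, 295 and 275 CPM at 330 min and 568, 617 and 641 CPM at 410 min (log2 change 1.09, SE 0.18, edgeR adjusted p = 7.4e-06). These are subunits of the peripheral, ATP-splitting part, and their stages did not overlap. The membrane subunit vha-5, known for its role in the excretory canal, went from 4.70 ± 3.65 CPM to 178 ± 15.6 CPM and overlaps another gene. With spike-in scaling 1 of the 14 was called higher. Of 13 genes of the excretory canal and duct 7 were called higher and 0 lower, among them exc-5, a guanine nucleotide exchange factor that keeps the canal narrow, with 6.81, 24.4 and 17.4 CPM at 330 min and 188, 239 and 243 CPM at 410 min (log2 change 3.81, SE 0.38, edgeR adjusted p = 1.68e-09), and the formin exc-6 (mean 19.7 CPM at 330 min and 86.5 CPM at 410 min).

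Pharynx genes were called higher at a share near that of all genes, and gap junction genes at a share above it. Of 15 pharynx genes 3 were called higher and 1 lower (20% and 6.67%, against 18.4% and 11.4% of all tested genes). The innexin inx-6 had 44.3, 59.6 and 27.8 CPM at 330 min and 247, 258 and 204 CPM at 410 min (log2 change 2.54, SE 0.31, edgeR adjusted p = 5.92e-08). The transcription factor gene peb-1 had 264, 368 and 175 CPM at 330 min and 982, 760.1 and 1049.6 CPM at 410 min (log2 change 1.82, SE 0.26, edgeR adjusted p = 9.91e-07). The troponin gene tni-4, which overlaps another gene, rose from 4.19 ± 5.82 CPM to 208 ± 39.5 CPM. The regulator pha-4, over 500 counts, had 1076, 888 and 646 CPM at 330 min and 766, 474 and 464 CPM at 410 min and missed the threshold (edgeR adjusted p = 0.0586), and pax-1, which overlaps another gene, fell. Of 16 innexins 8 (50%) were called higher and 1 (6.25%) lower, with a median of 0.87. The one that fell was inx-2, over 500 counts, with 487, 528 and 502 CPM at 330 min and 151, 100.9 and 226 CPM at 410 min (log2 change -1.73, SE 0.25, edgeR adjusted p = 1.21e-06), while inx-13 rose from 597 ± 284 CPM to 1165 ± 312 CPM and inx-15 from 363 ± 67.8 CPM to 738 ± 81.6 CPM. Without 330 min replicate 3, 5 innexins were called higher and 2 lower. Of 30 abu and pqn genes, which encode repeat proteins, 9 were called higher and 2 lower, pqn-13 with 0, 8.13 and 0.869 CPM at 330 min and 58.7, 122 and 60.8 CPM at 410 min and pqn-62 with 170.2, 103 and 108 CPM at 330 min and 18.5, 21.1 and 38.7 CPM at 410 min.

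Most of the cilia genes rose. Of 35 tested genes of cilia and intraflagellar transport 27 were called higher and 1 lower, with a median of 2.62. The summed level of all 53 in the table was 1258, 1178 and 986 CPM at 330 min and 2748, 2416 and 2851 CPM at 410 min. The Tubby homologue tub-1 had 15.3, 21.7 and 15.6 CPM at 330 min and 98.8, 100.9 and 133 CPM at 410 min (log2 change 2.67, SE 0.37, edgeR adjusted p = 8.12e-07). The gene dyf-1, which helps to activate a transport kinesin, had 15.3, 8.13 and 7.82 CPM at 330 min and 83.4, 77.4 and 71.8 CPM at 410 min (log2 change 2.91, SE 0.39, edgeR adjusted p = 2.61e-07). The transport subunit gene osm-5 rose from 9.13 ± 6.29 CPM to 49.8 ± 8.37 CPM, the dynein heavy chain che-3 from 2.56 ± 3.71 CPM to 27.8 ± 9.90 CPM and the transition zone gene mks-2 from 2.38 ± 2.77 CPM to 52.3 ± 32.2 CPM. Genes of the BBSome, a coat that carries ciliary cargo, were among the calls: bbs-1, bbs-2, bbs-8, bbs-9 (20.4, 24.4 and 4.34 CPM at 330 min and 92.6, 82.1 and 82.9 CPM at 410 min) and osm-12. Of the 27, 11 overlap another gene. The member called lower was hyls-1, of the ciliary base, from 31.03 ± 8.34 CPM to 2.84 ± 3.12 CPM, and daf-19, the factor that drives ciliary genes, was not called. With spike-in scaling 13 were called higher.

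Neuronal genes of the synapse rose in part. Of 32 pan-neuronal genes 15 were called higher and 1 lower, with a median of 0.78. The SNAP-25 homologue ric-4, of the synaptic fusion machinery, had 15.3, 16.3 and 13.03 CPM at 330 min and 138.96, 122 and 188 CPM at 410 min (log2 change 3.32, SE 0.39, edgeR adjusted p = 2.24e-08). The neuropeptide processing genes egl-21, egl-3 and sbt-1, which overlaps another gene, were called higher, egl-21 with 6.81, 13.5 and 5.21 CPM at 330 min and 33.97, 91.5 and 99.4 CPM at 410 min (log2 change 3.28, SE 0.50, edgeR adjusted p = 2.88e-06). The groups stood apart in both genes. The vesicle genes sng-1 and rab-3, the latter overlapping another gene, and the priming factor unc-13 were called higher as well, whereas snb-1, snt-1, unc-64 and unc-18 were not. The calcium channel gene cca-1, which overlaps another gene, was the one called lower. Of 4 neurotransmitter genes with counts enough, ace-1, an acetylcholinesterase, had 3.40, 5.42 and 1.74 CPM at 330 min and 114, 138 and 127 CPM at 410 min (log2 change 5.33, SE 0.49, edgeR adjusted p = 2.45e-10), and the GABA transporter snf-11 rose from 26.2 ± 12.7 CPM to 102 ± 31.5 CPM.

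Of 37 tested neuropeptide and insulin-like genes 13 were called higher and 2 lower, with a median of 1.44 (1.41 with genes at 0 counts set to their bound). Besides ins-6, flp-25 had 1.70, 5.42 and 1.74 CPM at 330 min and 83.4, 61.0 and 82.9 CPM at 410 min (log2 change 4.81, SE 0.46, edgeR adjusted p = 2.74e-10). The gene nlp-33 had 23.8, 32.5 and 11.3 CPM at 330 min and 210.0, 204 and 166 CPM at 410 min (log2 change 3.28, SE 0.34, edgeR adjusted p = 3.26e-09). Another, nlp-36, which overlaps another gene, rose from 40.9 ± 13.2 CPM to 346 ± 38.6 CPM. The lower ones were ins-2 and flp-15, the latter from 68.9 ± 26.4 CPM to 29.5 ± 13.2 CPM. Of 30 axon guidance genes 8 (26.7%, against 18.4% of all tested genes) were called higher and 1 lower, ina-1, whose call was lost in 5 of the 6 fits without 1 library. They included slit (slt-1, 28.9, 21.7 and 16.5 CPM at 330 min and 105, 82.1 and 66.3 CPM at 410 min) and netrin (unc-6, 102, 152 and 143 CPM at 330 min and 188, 232 and 226 CPM at 410 min), with no overlap between stages, while the receptors unc-5, unc-40 and sax-3 were not called.

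Proneural regulators fell as the neuronal genes rose. Of 17 tested proneural and neuronal precursor genes 11 were called lower and 2 higher, with a median of -1.50. The neurogenin homologue ngn-1 had 157, 67.7 and 119.9 CPM at 330 min and 9.26, 4.69 and 0 CPM at 410 min (log2 change -4.39, SE 0.54, edgeR adjusted p = 4.98e-08). The E protein hlh-2, partner of many bHLH factors, had 294, 268 and 344.9 CPM at 330 min and 33.97, 89.2 and 77.3 CPM at 410 min (log2 change -2.18, SE 0.27, edgeR adjusted p = 7.23e-08). The NeuroD homologue cnd-1 had 206, 244 and 205 CPM at 330 min and 55.6, 42.2 and 66.3 CPM at 410 min (log2 change -2.04, SE 0.29, edgeR adjusted p = 1.1e-06). The achaete-scute type hlh-14 had 199, 203 and 261 CPM at 330 min and 102, 58.7 and 33.1 CPM at 410 min (log2 change -1.72, SE 0.30, edgeR adjusted p = 3.06e-05). In these 4 genes no 410 min library reached a 330 min library. The atonal homologue lin-32, hlh-3, unc-130 and ham-1 were also called lower. The 2 called higher were Sox genes, egl-13 with 134, 116 and 79.1 CPM at 330 min and 463, 380.1 and 403 CPM at 410 min (log2 change 1.95, SE 0.33, edgeR adjusted p = 4.21e-05) and sox-3 with mean 9.23 CPM at 330 min and 60.7 CPM at 410 min. Of 18 terminal selectors, which set and hold a neuron's type, 2 were called higher (sem-4 and unc-30) and 2 lower (ceh-43 and egl-46), with a median of 0.01. These shares were 11.1% each, against 18.4% higher and 11.4% lower of all tested genes. The higher count was 1 to 4 and the lower count 0 to 2 when single libraries were left out.

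Genes of cell division fell. Of 54 tested genes of mitosis and cytokinesis 42 were called lower and 1 higher, with a median of -1.51, and the summed level of all 55 in the table was 6900, 6628 and 8069 CPM at 330 min and 2893, 3723 and 2790 CPM at 410 min. The spindle checkpoint genes bub-1 and spdl-1 had large falls. For bub-1 the values were 88.5, 106 and 118 CPM at 330 min and 21.6, 23.5 and 11.05 CPM at 410 min (log2 change -2.36, SE 0.30, edgeR adjusted p = 8.62e-08). For spdl-1 they were 233, 222 and 281 CPM at 330 min and 43.2, 46.9 and 49.7 CPM at 410 min (log2 change -2.41, SE 0.28, edgeR adjusted p = 2.32e-08). The centromere gene hcp-4 had 100.4, 106 and 152 CPM at 330 min and 27.8, 35.2 and 16.6 CPM at 410 min (log2 change -2.09, SE 0.28, edgeR adjusted p = 3.69e-07). All 410 min libraries were below all 330 min libraries in these genes. The mitotic kinase cdk-1 and its cyclin cyb-1 fell from 278 ± 107 CPM to 96.99 ± 59.9 CPM and from 325 ± 68.2 CPM to 137 ± 64.2 CPM, with 410 min replicate 2 the highest of its stage in both. The one called higher was klp-7, a kinesin that takes microtubules apart, with 90.2, 78.6 and 63.4 CPM at 330 min and 216, 178 and 133 CPM at 410 min (log2 change 1.23, SE 0.28, edgeR adjusted p = 0.000723). The count of 42 was 32 with spike-in scaling.

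Of 38 DNA replication genes 21 were called lower and 0 higher (median -1.24). The sum of all 39 in the table was 3013, 2920 and 3435 CPM at 330 min and 1096, 1755 and 912 CPM at 410 min. The licensing factor cdt-1 had 204, 73.1 and 173 CPM at 330 min and 30.9, 32.8 and 27.6 CPM at 410 min (log2 change -2.31, SE 0.34, edgeR adjusted p = 1.25e-06). The clamp loader gene rfc-4 had 37.4, 40.6 and 86.01 CPM at 330 min and 3.09, 16.4 and 0 CPM at 410 min (log2 change -2.76, SE 0.52, edgeR adjusted p = 6.84e-05). The topoisomerase gene top-2, over 500 counts, had 546, 558 and 493 CPM at 330 min and 185, 93.8 and 99.4 CPM at 410 min (log2 change -2.06, SE 0.26, edgeR adjusted p = 1.22e-07). Each stood lower in all 410 min libraries. For the sliding clamp pcn-1 the groups overlapped, with 121, 184 and 176 CPM at 330 min and 40.1, 141 and 33.1 CPM at 410 min, since 410 min replicate 2 stood above 330 min replicate 1. Of 10 genes tied to cell cycle exit 5 were called lower and 0 higher, including the G1 pair cyd-1 (mean 157 CPM at 330 min and 68.1 CPM at 410 min) and cdk-4 (mean 40.4 CPM at 330 min and 4.65 CPM at 410 min), the inhibitor cki-2 (234.9, 260.0 and 281 CPM at 330 min and 182, 176 and 122 CPM at 410 min) and the Rb homologue lin-35, which overlaps another gene; without 330 min replicate 3 the count was 2 and without 410 min replicate 3 it was 3. The inhibitor cki-1 was not called.

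**Figure D4:**
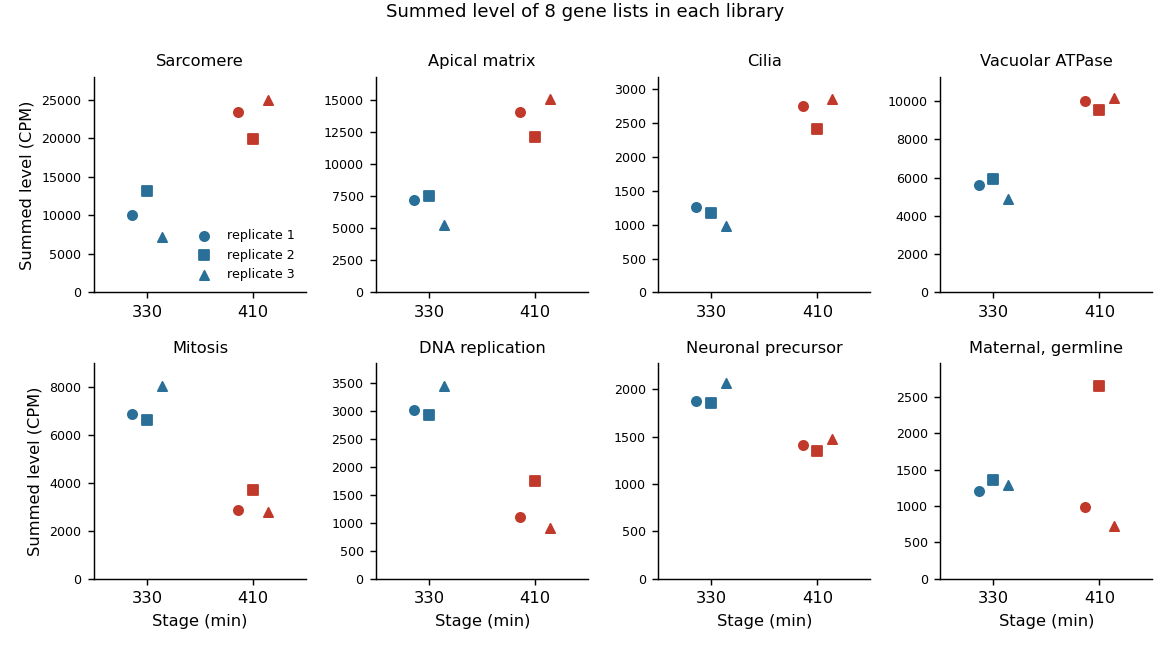
Summed level of 8 gene lists in each library, in CPM on vertical axes that start at 0, with symbols for replicate 1 (circle), 2 (square) and 3 (triangle) of 330 min (blue) and 410 min (red). Sarcomere, apical matrix, cilia and vacuolar ATPase sums are higher in every 410 min library, mitosis, DNA replication and neuronal precursor sums are lower in every one, and the maternal and germline sum of 410 min replicate 2 (2642 CPM) lies above all others.

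Early patterning genes were called lower at a share near that of all genes, though their summed level was lower in every 410 min library. The share of cell death genes called lower was above that of all genes. Of 27 early lineage and Notch genes 4 (14.8%, against 11.4% of all tested genes) were called lower and 0 higher, dsl-3, the Notch receptor lin-12 (mean 24.1 CPM at 330 min and 3.87 CPM at 410 min), the beta-catenin sys-1 (mean 59.8 CPM at 330 min and 14.1 CPM at 410 min) and ref-1. Their median was -0.57, and 10 were lower and 1 higher at an unadjusted p under 0.05 by edgeR. The sum of all 34 in the table was 1668, 1408.5 and 1837 CPM at 330 min and 1084, 1016 and 989 CPM at 410 min. Of 22 cell death and engulfment genes 8 (36.4%) were called lower and 0 higher (median -0.55, or -0.44 with genes at 0 counts set to their bound). Besides ces-2 these were the Apaf-1 homologue ced-4, the Bcl-2 homologue ced-9, the engulfment receptor ced-1 and ttr-52, tat-1, crn-6 and ina-1. For ced-4 the libraries gave 81.7, 67.7 and 100.8 CPM at 330 min and 49.4, 25.8 and 33.1 CPM at 410 min (log2 change -1.25, SE 0.32, edgeR adjusted p = 0.00226). For ced-9 they gave 311, 228 and 288 CPM at 330 min and 191, 169 and 127 CPM at 410 min (log2 change -0.74, SE 0.20, edgeR adjusted p = 0.00422). The count was 3 without 330 min replicate 3, 4 without 410 min replicate 1, 4 without 410 min replicate 2 and 5 without 410 min replicate 3. The BH3-only gene egl-1 was not called, with 90.2, 51.5 and 46.05 CPM at 330 min and 92.6, 61.0 and 71.8 CPM at 410 min. Of 16 heterochronic and miRNA pathway genes 4 (25%, against 11.4% of all tested genes) were called lower and 0 higher, the zinc finger factor die-1, Dicer (dcr-1, 98.7, 67.7 and 107 CPM at 330 min and 30.9, 42.2 and 16.6 CPM at 410 min), the Argonaute alg-2 (294, 336 and 275 CPM at 330 min and 124, 211 and 177 CPM at 410 min) and the exonuclease xrn-2, which overlaps another gene. The Argonaute alg-1, drsh-1 and pash-1 were not called.

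Nuclear hormone receptors were more often higher than lower. Only 78 of 278 were tested, and 24 were called higher and 3 lower, with a median of 0.50. The gene nhr-91, which overlaps another gene, had 93.6, 127 and 83.4 CPM at 330 min and 664, 594 and 619 CPM at 410 min (log2 change 2.66, SE 0.22, edgeR adjusted p = 1.24e-11), and nhr-49, a regulator of fat metabolism, rose from 429 ± 95.6 CPM to 747 ± 126 CPM. The higher count was 16 without 330 min replicate 3, and the lower count 6 without 330 min replicate 1. Of 35 homeobox genes numbered ceh 6 were called higher and 4 lower, shares near those of all genes, and the lower count was 2 without 330 min replicate 3. Examples were ceh-48, with 121, 81.3 and 72.1 CPM at 330 min and 188, 169 and 249 CPM at 410 min, and ceh-86, which fell from 131 ± 14.3 CPM to 48.7 ± 10.4 CPM.

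Housekeeping groups differed in their share of calls. Of 32 proteasome subunits edgeR called 0 (1 in each direction at an unadjusted p under 0.05, and 0 by DESeq2), with a median of -0.05, and of 42 nuclear genes of oxidative phosphorylation 1 was called higher, with a median of 0.19; DESeq2 called 7 of the latter. Of 76 ribosomal protein genes 25 (32.9%) were called higher and 0 lower, but 73 of the 76 were over 500 counts and the call was not stable: the count was 3 without 330 min replicate 1, 68 without 330 min replicate 2, 11 without 410 min replicate 1 and 0 without 330 min replicate 3 or without 410 min replicate 3. It was also 2 after a correction for collisions between identifiers, 0 with library size alone and 54 by DESeq2. Of 26 genes of glycolysis and related pathways 7 were called higher and 0 lower, including gpd-3 (240.0, 328 and 219 CPM at 330 min and 488, 617 and 724 CPM at 410 min), which has a near-identical copy. Without 330 min replicate 3 the count was 4. Of 12 heat shock and chaperone genes 4 were called higher, all small heat shock proteins: hsp-43, hsp-12.1, hsp-25 and hsp-12.2, the last 2 overlapping another gene. For hsp-43 the values were 8.51, 13.5 and 6.08 CPM at 330 min and 136, 164 and 171 CPM at 410 min (log2 change 4.19, SE 0.38, edgeR adjusted p = 2.74e-10). For hsp-12.1 they were 221, 249 and 153 CPM at 330 min and 568, 633 and 442 CPM at 410 min (log2 change 1.44, SE 0.26, edgeR adjusted p = 7.3e-05). Of 9 fatty acid desaturase and elongase genes elo-9 was called higher (mean 5.25 CPM at 330 min and 45.9 CPM at 410 min) and fat-3 (mean 54.9 CPM at 330 min and 19.8 CPM at 410 min) and fat-4 (mean 144 CPM at 330 min and 92.1 CPM at 410 min) lower. The shares were 11.1% higher and 22.2% lower, against 18.4% and 11.4% of all tested genes. Both lower calls were lost without 410 min replicate 2.

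The step was then set against its neighbours, which share libraries with it: the 330 min libraries with the step from 270 to 330 min and the 410 min libraries with the step from 410 to 500 min. From 270 to 330 min 6.2% of tested genes were called higher and 1.52% lower, and from 410 to 500 min 14.5% and 7.39%. The difference between the changes was tested within the fit. Against the previous step the change from 330 to 410 min was more positive for 57 genes (0.688%) and more negative for 130 (1.57%). Against the next step it was more positive for 688 (8.31%) and more negative for 229 (2.77%). The sum of 187 for the previous step was 63 without 330 min replicate 3, 92 without 330 min replicate 1 and 117 without 410 min replicate 3, and without 410 min replicate 2 it lay between the last 2 values.

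The lists were then followed over the 3 steps. Of the 22 actomyosin and spectrin genes 3 were called higher from 270 to 330 min, 10 from 330 to 410 min and 1 from 410 to 500 min, when 6 were called lower. The change was more positive than in the previous step for 1 and more negative for 0. It differed from that of the next step for 9, all more positive, and among them was let-502 (difference 4.27 on the log2 scale, edgeR adjusted p = 2.97e-12). Its highest stage mean of the course was that of 410 min (1387 ± 207 CPM), and the mean of 500 min was 266 ± 63.8 CPM. Of the 22 apical matrix genes 15 had a more positive change than in the next step and 2 a more negative one. The vacuolar ATPase subunits had 0 of 18 called from 270 to 330 min, 14 higher from 330 to 410 min and 15 higher from 410 to 500 min. Their change differed from the previous step for 0 and from the next for 1. Sarcomere genes had 13 called higher from 270 to 330 min, 21 in this step and 4 in the next; the change differed from the previous step for 0 and from the next for 3. Mitosis genes had 10, 42 and 19 called lower in the 3 steps, and 3 differed from the previous step and 2 from the next. Neuropeptide genes had 2, 13 and 26 called higher, and 1 differed from the previous step and 8 from the next. The proneural list had 5 genes with a more negative change than in the previous step.

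Some genes were expressed in a pulse around 410 min. The zinc finger gene ztf-30 had 18.7, 35.2 and 19.1 CPM at 330 min and 374, 204 and 309 CPM at 410 min and 1.74 ± 1.55 CPM at 500 min, and its change differed from that of the next step by 10.51 on the log2 scale (SE 0.69, edgeR adjusted p = 2.64e-12). The genes ins-6, lpr-1 and, with an overlap, atf-8 and ZK418.7 were the others of the 5 largest such differences. Turning the other way, the S-adenosylmethionine synthetase gene sams-1 dipped: it had 453, 393 and 409 CPM at 330 min and 40.1, 113 and 116 CPM at 410 min and 1081 ± 47.2 CPM at 500 min (difference from the next step -5.86, SE 0.91, edgeR adjusted p = 0.000154). The phosphoethanolamine methyltransferase pmt-2, an enzyme that uses S-adenosylmethionine to make phosphatidylcholine, dipped in the same way, at 66.0 ± 21.2 CPM, 5.97 ± 5.87 CPM and 77.2 ± 48.6 CPM at the 3 stages. So did sptf-1, nhr-25 and the small GTPase gene chw-1.

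Against the previous step, the largest differences in the negative direction among genes called lower were in zig-4, cutl-2, klf-2, ugt-53 and ngn-1. The secreted immunoglobulin-domain gene zig-4 rose from 48.8 ± 77.3 CPM at 270 min to 326 ± 55.1 CPM and fell to 51.4 ± 20.6 CPM, with a difference of -5.23 between the changes (SE 1.04, edgeR adjusted p = 0.011). The SD at 270 min was larger than the mean. In the positive direction the 5 largest differences were those of hot-4, clec-180, atf-8, ets-4 and lron-12, which had at most 7 counts each at 330 min. The lectin gene clec-180 reached 104.04 ± 17.6 CPM and lron-12 91.5 ± 32.3 CPM, and the other 3 overlap another gene.

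**Figure D5:**
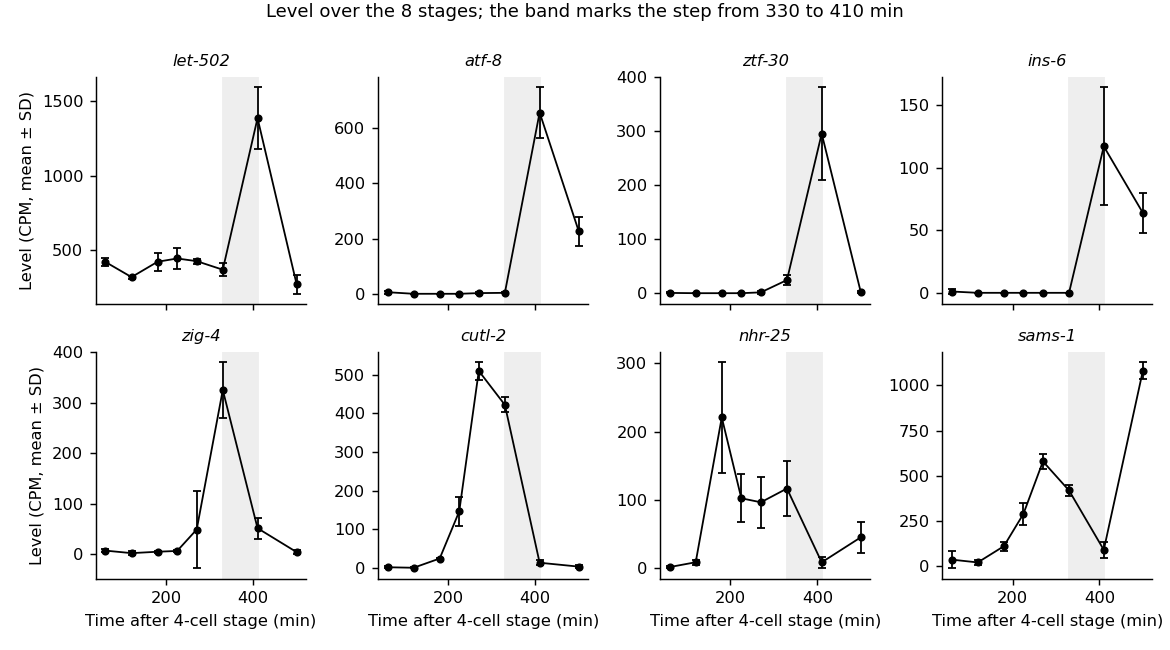
Mean level in CPM with SD over the 3 libraries of each of the 8 stages, against time after the 4-cell stage in min, for 8 genes whose change from 330 to 410 min (grey band) differed from a neighbouring step. The upper 4 genes are highest at 410 min; zig-4 and cutl-2 fall within the band, and nhr-25 and sams-1 are low at 410 min and higher again at 500 min.

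Some calls of the genes named above did not hold in every fit that left out 1 library. Without 330 min replicate 1, the call was lost for act-2, act-4, ced-1, cpn-3, dpy-17, dpy-18, eat-20, elt-7, fat-4, jac-1, mes-4, myo-3, nhr-73, nhr-74, ttr-52, unc-30, unc-54, unc-6 and xrn-2 (edgeR adjusted p = 0.0556 to 0.168). Without 330 min replicate 2 it was lost for eat-20, egl-46, ina-1, jac-1, let-4, mlt-10, nhr-74, nid-1, tat-1, ttn-1, unc-30 and unc-54 (edgeR adjusted p = 0.05 to 0.376). The most were lost without 330 min replicate 3, namely act-2, act-4, bbs-1, ced-1, ceh-16, ceh-43, cki-2, cle-1, cpn-3, crn-6, cutl-25, cyd-1, dgn-1, dpy-17, dpy-3, eat-20, elt-7, fat-4, flp-15, gex-2, ham-1, hlh-1, ina-1, inx-13, let-4, mec-5, mlt-10, myo-3, nhr-73, nhr-74, nmy-1, pat-12, pcn-1, sdn-1, tat-1, ttn-1, ttr-52, unc-15, unc-54 and xrn-2 (edgeR adjusted p = 0.052 to 0.234). Leaving out 410 min replicate 1 ended the calls of act-4, ceh-16, cle-1, cpn-3, crn-6, dgn-1, dpy-17, dpy-3, eat-20, elt-7, fat-4, flp-15, gex-2, ina-1, let-4, mes-4, mlt-10, nid-1, pal-1, pcn-1, ref-1, tat-1, ttn-1, ttr-52, unc-30, unc-54 and xrn-2 (edgeR adjusted p = 0.0508 to 0.227). Besides puf-5, those lost without 410 min replicate 2 were cca-1, ced-1, ceh-16, ceh-43, dgn-1, eat-20, egl-46, elt-7, fat-3, fat-4, flp-15, gex-2, ham-1, hlh-1, ina-1, jac-1, let-4, mec-5, mlt-10, nhr-74, nid-1, sdn-1, tat-1, ttr-52, unc-54, unc-6 and xrn-2 (edgeR adjusted p = 0.0513 to 0.232). Without 410 min replicate 3 they were act-4, ced-1, cki-2, cpn-3, dpy-17, fat-4, ftt-2, ina-1, jac-1, mes-4, nhr-73, nhr-74, pcn-1, ref-1, ttr-52, unc-30, unc-54 and xrn-2 (edgeR adjusted p = 0.0502 to 0.21).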

How the data were processed

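Raw counts per gene were used as deposited. HTSeq is named in the submitters' processing notes; for aligner, genome build, annotation and strand setting, nothing is given in the sources used here. The table held 20779 entries, of which 92 spike-in standards were left out of tests and library sizes. Of 20687 genes, 20080 matched the WBcel235 annotation, from which positions and overlaps were taken, and 607 (0.444% of counts) did not. The test was that of edgeR 4.0.16, run in R 4.3.3 (filterByExpr with minima of 10 counts per library and 15 in total, TMM factors, robust quasi-likelihood F test, two-sided, Benjamini-Hochberg over 8279 genes holding 98.21% of counts). All 24 libraries with 8 stages entered one fit with 16 residual degrees of freedom, and contrasts gave the step and its differences from both neighbouring steps. The tests were checked on simulated counts. The test gives no standard error. Each SE printed is the size of the log2 change divided by the square root of the F statistic, an approximation. DESeq2 1.42.0 was an alternative.

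Leading genes were those called, with no overlap between the 3 libraries of each stage, at least 50 CPM in the higher stage and at most 500 counts in any library: the 15 highest and 15 lowest log2 changes, the 10 largest gains and losses in CPM (500 counts allowed), the 5 lowest p each way, up to 4 per list in the main direction and 1 in the other, and the 5 largest differences from each neighbouring step each way. Other list members were named after their values were seen, and 3 genes, left out of the actomyosin list, are not reported here. Members, lists and rules were chosen with earlier results of these data known. Same-numbered libraries of the 2 stages did not deviate together in every pair (correlations of 0.354, 0.0699 and -0.051 for replicates 1, 2 and 3), and no replicate term was used. In the labels, the first 2 replicates of each stage carry the same running number. Replicates differed by more than counting noise (chi-square per gene of 2.19 to 5.93). Folds against 0 counts use a limit of 3 counts summed over the stage, and these limits and the 95% intervals cover counting error only. Other settings tried were DESeq2 size factors, library size alone, spike-in scaling, no filter, a filter at 20 CPM, a replicate block, the 6 libraries alone, no replicate 1 libraries, replicates 1 and 2 summed, a correction for 1024 identifiers, genes over 500 counts left out, and each library left out.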

Additional observations from a re-analysis of the deposited data

How the results depend on the processing

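Of the 2474 genes called (1276 at least 2-fold higher and 653 at least 2-fold lower), none changed direction of call under any setting. With library size alone 1815 genes were lower, 1237 of them at least 2-fold. With spike-in scaling 931 were called, 568 higher and 363 lower, all at least 2-fold, and the change differed from the previous step for 12 genes and from the next for 186. DESeq2 called 542 lower, 408 of them at least 2-fold. Without the replicate 1 libraries of the series the previous step differed for 100 genes, against 187. Leaving out 1 library gave 1846 to 2675 calls, 1211 to 1713 higher and 635 to 962 lower, 1094 to 1450 at least 2-fold higher and 481 to 717 at least 2-fold lower, 63 to 135 differences from the previous step and 667 to 982 from the next, against 917. Of the genes followed singly, 1 reversed, puf-5, with -0.24 to 3.26 on the log2 scale over the fits without 1 library, the lowest without 410 min replicate 2. The other settings kept these counts within 1.5 times. With the replicate number as a block, 1713 were higher and 1200 lower, although same-numbered libraries deviated together in 1 pair of 3 only; 3 of the genes followed singly lost their call and 94 gained one. Spike-in scaling took the call from 259 of these genes, and leaving out 330 min replicate 3 from 126. The fit to the 6 libraries alone gave no differences between steps. The causes of these shifts were not tested.

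Depth limited low genes: 1 count stood for up to 4.67 CPM. The possible ceiling of the counting affects genes over 500 counts, 396 of those tested. Levels are relative to the library, so a change in RNA per embryo is not measured. Sequences of promoters were not used here.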

Other observations

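Genes of no list above also changed strongly. C09F5.1, over 500 counts and overlapping another gene, had 109, 130.02 and 66.9 CPM at 330 min and 2059.7, 1539 and 2143 CPM at 410 min (log2 change 4.28, SE 0.43, edgeR adjusted p = 8.66e-08), and W06F12.2, which overlaps another gene, had 56.2, 48.8 and 41.7 CPM at 330 min and 759.6, 704 and 641 CPM at 410 min (log2 change 3.86, SE 0.24, edgeR adjusted p = 1.2e-14). Both were far higher in every 410 min library. Changes in both directions were seen among C-type lectin-like genes, where clec-180 rose and clec-196 fell, with 226, 252 and 268 CPM at 330 min and 27.8, 53.96 and 33.1 CPM at 410 min (log2 change -2.63, SE 0.28, edgeR adjusted p = 2.82e-09). Y65A5A.1, over 500 counts, had 536, 742 and 504 CPM at 330 min and 95.7, 61.0 and 188 CPM at 410 min (log2 change -2.48, SE 0.28, edgeR adjusted p = 1.32e-08), with all 410 min libraries below those of 330 min. The cytosolic isocitrate dehydrogenase gene idh-1 (mean 1064 CPM at 330 min and 527 CPM at 410 min) and the transthyretin-related ttr-50 (mean 1388 CPM at 330 min and 725 CPM at 410 min) fell as well; both were over 500 counts, overlap another gene and were not called with spike-in scaling (edgeR adjusted p = 0.107 and 0.113).

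Among nuclear hormone receptors whose function is little known, nhr-213 had 3.40, 2.71 and 0.869 CPM at 330 min and 40.1, 72.7 and 55.2 CPM at 410 min (log2 change 4.69, SE 0.59, edgeR adjusted p = 2.49e-07), and nhr-181 5.11, 0 and 0.869 CPM at 330 min and 67.9, 75.1 and 22.1 CPM at 410 min (log2 change 4.75, SE 0.66, edgeR adjusted p = 6.25e-07). In both genes the 330 min libraries held only a few counts and the stages did not overlap. Of the homeobox genes, ceh-27, which overlaps another gene, had 226, 217 and 239 CPM at 330 min and 74.1, 51.6 and 38.7 CPM at 410 min (log2 change -2.01, SE 0.24, edgeR adjusted p = 2.44e-08), and ceh-2 rose from 70.5 ± 16.3 CPM to 138 ± 26.3 CPM. Among enzymes of sugar metabolism, the aldolase gene aldo-2, which overlaps another gene, had 74.9, 189.6 and 74.7 CPM at 330 min and 522, 709 and 713 CPM at 410 min (log2 change 2.60, SE 0.34, edgeR adjusted p = 7.87e-07), and icl-1, of the glyoxylate cycle and over 500 counts, had 536, 867 and 453 CPM at 330 min and 936, 948 and 1243 CPM at 410 min (log2 change 0.76, SE 0.22, edgeR adjusted p = 0.0068). The stages did not overlap in either gene, and 330 min replicate 2 was the highest of its stage in both.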
